A study of Rattus norvegicus with 38 samples.

Results

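Glutamatergic synapses are the excitatory contacts between cortical neurons, and 9 genes that encode parts of them were followed here: Slc17a7, Snap25, Syn1, Dlg4, Camk2a, Grin1, Grin2a, Grin2b and Gria1. They were chosen by name, as 9 of the 32883 Ensembl gene IDs in the deposited count table, and all 9 IDs were in it. Their symbols are those given with the chosen IDs, because the table itself pairs no ID with a name. RNA was sequenced from clusters of neurons and from blood vessels, both cut with a laser from the frontal brain cortex of rats. In both strains late animals were 32 to 34 weeks old and early animals 24 to 25 weeks. SHRSP, the stroke-prone line of the spontaneously hypertensive rat, had 5 late and 5 early animals. Wistar, an outbred stock without that inherited hypertension, had 4 late and 5 early animals, so the word stage in Wistar stands for age alone. Each of the 19 animals gave 1 neuron library and 1 vessel library. The labels name no treatment, and the sources used here state neither the sex of the animals nor how the pieces were picked. By its title, the study asked how the signatures of hypertension in this brain region depend on stage.

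At a glutamatergic synapse, the presynaptic terminal loads glutamate into vesicles and releases it by membrane fusion. The postsynaptic side answers through AMPA receptors, which carry most of the fast current, and NMDA receptors, which admit calcium. That calcium activates a kinase held at the postsynaptic density, the protein layer under the receptors, and the kinase is central to long-term changes of synaptic strength in the cortex and hippocampus of rodents. Of the 9 genes, Slc17a7, Snap25 and Syn1 act before the cleft, and Dlg4, Camk2a, Grin1, Grin2a, Grin2b and Gria1 after it. Snap25 and Syn1 also serve synapses that release other transmitters.

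Totals were 1198386 to 4101901 counts in neuron libraries and 1612966 to 4963429 in vessel libraries, as gene counts of 3' end sequencing. Levels are given as CPM, counts per 1000000 counts of a library after TMM scaling, a correction for differences in composition. They do not grow with transcript length, and the abundance of different genes is not ranked here. The libraries fell into 2 sets of animals by the share of counts taken by the most abundant ID in neurons, ENSRNOG00000043866. That share was 20.4% to 35.5% in 11 animals, called high-share below, and 4.34% to 10.7% in the 8 others, called low-share. All 9 late animals were high-share, with 1 early SHRSP animal (number 383) and 1 early Wistar animal (number 349). Low-share vessel libraries also held fewer detected IDs, 4104 to 8752 against 9875 to 11974 in high-share vessel libraries. The names follow the neuron library of each animal. In vessel libraries the share overlapped, at 9.69% to 40.6% in high-share and 6.45% to 16.3% in low-share animals. Stage and library set therefore cannot be told apart except through those 2 early animals. In pooled tissue, fewer cells of a type and less RNA per cell cannot be told apart either. Marker genes of other cell types could not be looked up without names.

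Every neuron library held counts of all 9 genes, with 13 counts as the lowest value, for Gria1 in early Wistar animal 343. Together the 9 genes took 0.423% ± 0.0590 of the counts in late SHRSP neurons and 0.594% ± 0.0928 in early SHRSP neurons (SD, n = 5 each). In Wistar neurons the share was 0.386% ± 0.0755 (n = 4) late and 0.586% ± 0.143 (n = 5) early. The share was 0.333% to 0.498% in the late animals and 0.432% and 0.437% in the early high-share animals. In the early low-share animals it was 0.528% to 0.817%. The most abundant ID, whose share defines the library set, is part of these totals. By arithmetic, a larger share of that ID leaves a smaller one for all others, and how much this adds here was not tested. Snap25, a SNARE protein that drives vesicle fusion, made up 23.9% to 54.5% of the counts of the 9 genes. Animals of one group differed least in Grin2b and Grin1 and most in Grin2a and Gria1. The coefficient of variation between neuron libraries of a group had a median of 13.2% for Grin2b and 15.9% for Grin1, against 50.6% for Grin2a and 46.2% for Gria1. Grin2a and Gria1 also had the lowest neuron counts of the 9 genes, at 17 to 336 and 13 to 196. Each early group mixes both library sets, so this spread is not that between animals alone.

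**Figure D1:**
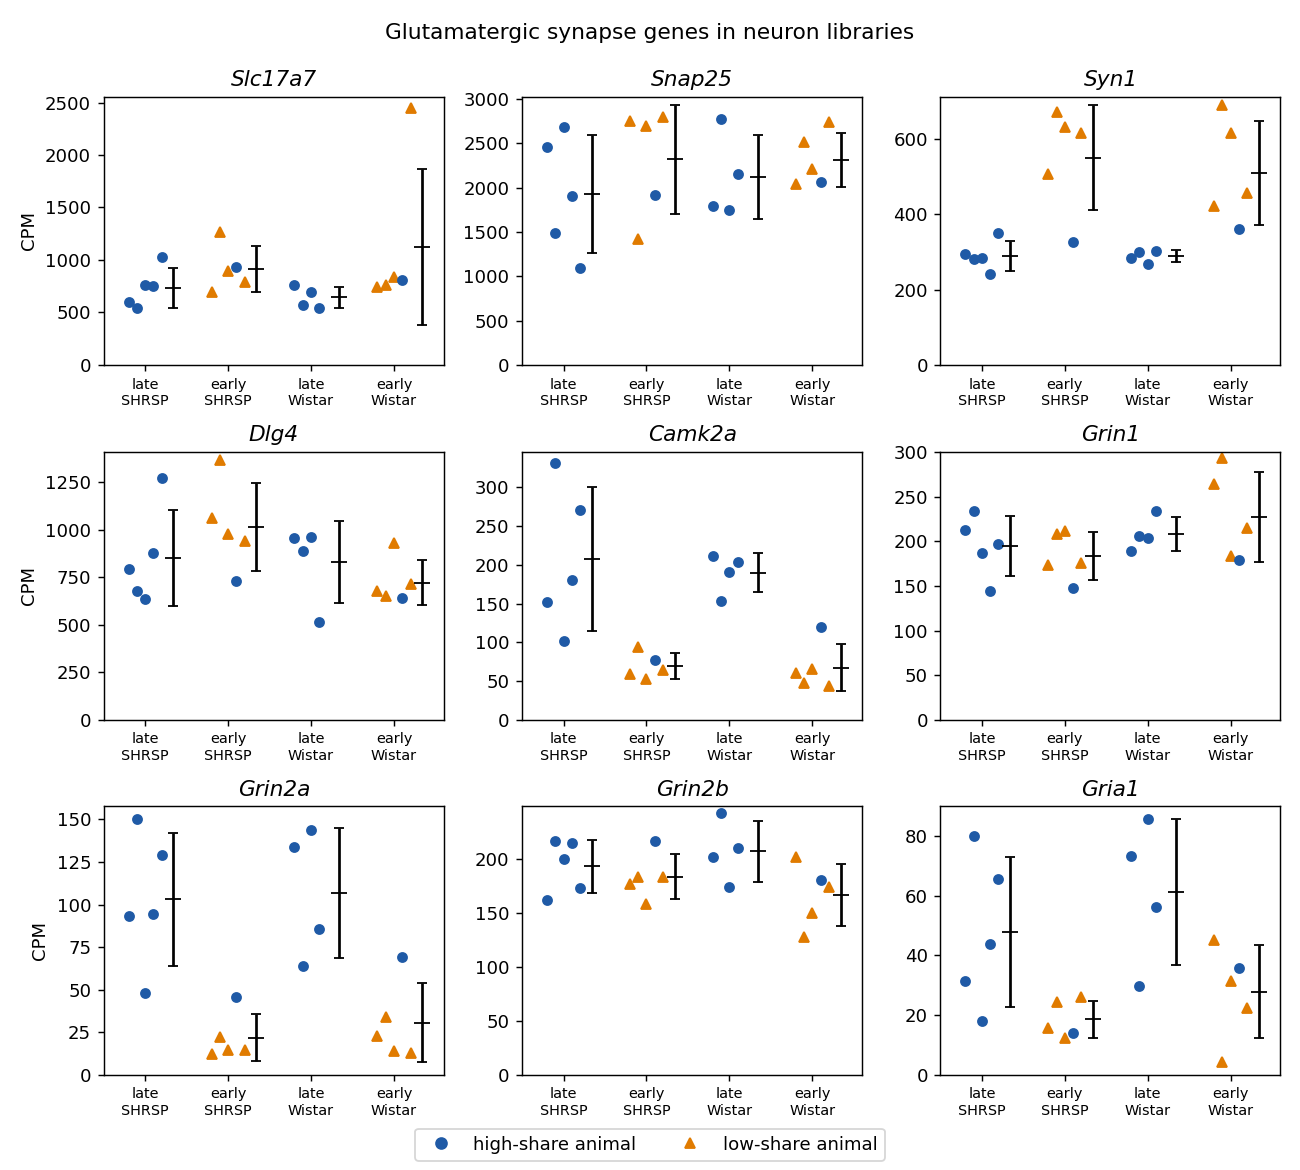
CPM of the 9 genes in the 19 neuron libraries, each point 1 animal, with the mean and SD of each group beside its points (n = 5, and 4 for late Wistar). Circles are the 11 high-share and triangles the 8 low-share animals. Grin2a and Camk2a lie higher and Syn1 lower in late than in early neurons, and the early high-share animals lie nearest to the late ones for Syn1 in both strains.

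Between the stages, the subunit gene Grin2a and the kinase gene Camk2a were higher in late than in early neurons, and Syn1 was lower, in both strains. In SHRSP neurons 2 of the 9 genes rose and 1 fell past the test, against 8.85% of all 10833 IDs (6.12% higher and 2.73% lower), in edgeR's quasi-likelihood test, with a Benjamini-Hochberg adjusted p under 0.05. In Wistar neurons 2 rose and 1 fell as well, against 9.31% of all IDs (5.84% higher and 3.47% lower). The median log2 fold of the 9 genes was 0.07 in SHRSP and 0.20 in Wistar, beside -0.08 and -0.03 for all IDs tested. The remaining 6 genes passed in neither strain, and no call survived once the library set entered the fit, as detailed after the values.

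Grin2a (ENSRNOG00000033942) encodes GluN2A, a glutamate-binding NMDA receptor subunit that becomes common in the cortex during postnatal maturation of rodents. It had 93.4, 150.5, 48.1, 94.5 and 129 CPM in late SHRSP neurons, against 12.1, 22.1, 14.8, 45.5 and 14.3 CPM in early SHRSP neurons. The SHRSP groups did not overlap, and the highest early value belonged to the high-share animal 383. The means were 103 ± 39.1 CPM late and 21.8 ± 13.8 CPM early (SD, n = 5 each), a 4.62-fold difference (log2 fold 2.21, SE 0.44, edgeR adjusted p = 0.00691). In Wistar neurons it had 134, 64.0, 144 and 85.5 CPM late, against 22.8, 34.0, 14.1, 69.0 and 12.8 CPM early. Here the groups overlapped, since 69.0 CPM in the early high-share animal 349 was above the lowest late value. The late level was 3.48-fold the early one (log2 fold 1.80, SE 0.45, edgeR adjusted p = 0.0186). That Wistar call was lost without late animal 350 (adjusted p = 0.0614) or late animal 353 (adjusted p = 0.0823), without the filter on low counts (adjusted p = 0.0640) and with the 2 Wistar groups fitted alone (adjusted p = 0.0630).

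Camk2a (ENSRNOG00000018712) encodes the alpha subunit of the calcium/calmodulin-dependent kinase CaMKII, and its transcript is carried into dendrites. Late SHRSP neurons had 151, 331, 102, 181 and 271 CPM and early SHRSP neurons 58.4, 93.9, 52.1, 77.4 and 63.9 CPM. Late Wistar neurons had 212, 154, 191 and 204 CPM, and early Wistar neurons 60.1, 48.0, 65.1, 119.65 and 43.5 CPM. In neither strain did the groups overlap, and the early value nearest to the late ones in Wistar was that of animal 349. The late level was 2.98-fold the early one in SHRSP (log2 fold 1.57, SE 0.28, edgeR adjusted p = 0.00407) and 2.83-fold in Wistar (log2 fold 1.498, SE 0.30, edgeR adjusted p = 0.00733). Leaving out any 1 animal kept both calls.

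Syn1 (ENSRNOG00000010365) encodes synapsin I, which tethers synaptic vesicles to one another and to the cytoskeleton. Late SHRSP neurons had 294, 282, 284.5, 240.4 and 350.2 CPM and early SHRSP neurons 507.5, 671, 634, 326 and 616 CPM. The low early value of 326 CPM was that of animal 383 and fell inside the late range. Late Wistar neurons had 285, 299.5, 269 and 303 CPM, and early Wistar neurons 422, 691, 617, 362 and 457 CPM, without overlap. The late groups were also the more even, with 290.3 ± 39.3 CPM (SD, n = 5) in SHRSP and 289 ± 15.2 CPM (n = 4) in Wistar, against 551 ± 139.8 and 509.95 ± 138 CPM (n = 5 each) in their early groups. Syn1 fell by 0.92 on the log2 scale in SHRSP (SE 0.19, edgeR adjusted p = 0.00617) and by 0.82 in Wistar (SE 0.20, edgeR adjusted p = 0.0156). The Wistar call was lost without late animal 353 (adjusted p = 0.0663) and with the 2 Wistar groups fitted alone (adjusted p = 0.0571).

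The promoters of Camk2a and Syn1 are shown because these genes moved in opposite directions with stage. Each stretch runs from 250 bases before to 50 bases after the gene's start in RefSeq, on assembly GRCr8. Such an entry was found for 5 of the 9 genes. The Camk2a stretch is chr18:56648930-56649229 on the plus strand and the Syn1 stretch is chrX:3725495-3725794 on the plus strand. Capitals mark matches to the cyclic AMP response element TGACGTCA, the GC box GGGCGG or the TATA box TATAAA on either strand.
Camk2a: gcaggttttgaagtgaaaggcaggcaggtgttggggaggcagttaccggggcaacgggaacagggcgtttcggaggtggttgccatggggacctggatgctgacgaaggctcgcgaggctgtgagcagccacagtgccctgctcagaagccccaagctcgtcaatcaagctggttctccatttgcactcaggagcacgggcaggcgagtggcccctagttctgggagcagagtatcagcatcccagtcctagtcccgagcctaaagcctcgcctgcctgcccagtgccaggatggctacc
Syn1: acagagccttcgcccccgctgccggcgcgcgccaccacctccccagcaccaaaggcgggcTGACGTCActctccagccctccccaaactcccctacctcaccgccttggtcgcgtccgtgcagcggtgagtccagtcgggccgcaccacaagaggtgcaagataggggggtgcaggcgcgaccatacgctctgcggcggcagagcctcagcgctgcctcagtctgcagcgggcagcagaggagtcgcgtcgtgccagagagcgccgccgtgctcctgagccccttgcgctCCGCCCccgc
The Syn1 stretch held 1 response element, which begins 190 bases before the start. It also held 1 GC box on the reverse strand, which begins 40 bases after the start. Of 33469 rat promoters of the same length, 1.83% held the response element, 33.1% the GC box and 14.2% the TATA box. The Camk2a stretch held none of the 3 motifs, which says only that these letters are not in this window. Both were rich in G and C, at 61.3% for Camk2a and 71.0% for Syn1, against a median of 51.7% over all promoters in the table. Among the entries not shown, Dlg4 held none of these motifs (68.7% G and C). Slc17a7 held 3 GC boxes (64.7%), all before the start, and Grin1 held 1 (59.7%), which begins 29 bases after the start. A relation of the motifs to the stage differences was not tested.

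Gria1 (ENSRNOG00000045816), which encodes the AMPA receptor subunit GluA1, did not pass in either strain, although its values leaned the way of Grin2a. Late SHRSP neurons had 31.5, 79.9, 18.0, 43.7 and 65.6 CPM and early SHRSP neurons 15.7, 24.4, 12.3, 14.1 and 26.1 CPM. Late Wistar neurons had 73.3, 29.6, 85.9 and 56.3 CPM and early Wistar neurons 45.2, 4.13, 31.5, 35.9 and 22.2 CPM. In both strains the groups overlapped through the lowest late animals. The log2 fold was 1.35 in SHRSP (SE 0.45, edgeR adjusted p = 0.0616) and 1.14 in Wistar (SE 0.46, edgeR adjusted p = 0.115). In SHRSP it passed with DESeq2 (adjusted p = 0.0136), without late SHRSP animal 381 (adjusted p = 0.0279), without early Wistar animal 343 (adjusted p = 0.0127) and with the 2 SHRSP groups fitted alone (adjusted p = 0.0106).

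Slc17a7 (ENSRNOG00000020650) encodes the vesicular glutamate transporter VGLUT1, which fills synaptic vesicles. In Wistar neurons it had 764, 567, 692 and 546 CPM late, against 740.3, 759, 839, 813 and 2452 CPM early. One early animal, number 368, stood far above the rest, and the other values lay close together. The log2 fold was -0.80 (SE 0.30, edgeR adjusted p = 0.0831), and without animal 368 it was -0.30 (SE 0.19, adjusted p = 0.344). It passed without early animal 349 (adjusted p = 0.0449) and with library totals as the only scaling (adjusted p = 0.00617). In SHRSP neurons Slc17a7 had 597, 537, 763, 754 and 1027 CPM late and 691, 1268, 891, 931 and 794 CPM early, with overlapping groups and a log2 fold of -0.32 (SE 0.27, edgeR adjusted p = 0.492).

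The other 4 genes had stage folds near 0. Over both strains, Snap25 had 1094 to 2777 CPM in late and 1424 to 2799 CPM in early neurons, and Dlg4 had 513 to 1271 CPM late and 642 to 1369 CPM early. Grin1 had 145 to 234 CPM late and 147 to 293 CPM early, and Grin2b had 163 to 243 CPM late and 127 to 217 CPM early. In all 4 genes the late and early ranges overlapped over most of their length. Snap25 (ENSRNOG00000006037) had a log2 fold of -0.27 (SE 0.21) in SHRSP and -0.13 (SE 0.23) in Wistar. Dlg4 (ENSRNOG00000018526), which encodes PSD-95, the main scaffold of the postsynaptic density, had -0.26 (SE 0.20) in SHRSP and 0.20 (SE 0.21) in Wistar. Grin1 (ENSRNOG00000011726), the subunit that every NMDA receptor contains, had 0.09 (SE 0.16) and -0.12 (SE 0.17). Grin2b (ENSRNOG00000008766), which encodes the GluN2B subunit that dominates in the young rodent cortex, had 0.07 (SE 0.15) in SHRSP and 0.31 (SE 0.16) in Wistar. For Grin2b, 2 SE on each side of the fold reach -0.23 to 0.37 in SHRSP and -0.01 to 0.63 in Wistar. A change of Grin2b in SHRSP as large as that of Grin2a would lie outside this interval. Across the alternatives tried, Snap25, Dlg4 and Grin2b passed in none in either strain. Grin1 passed in 1, in Wistar with library totals as the only scaling (log2 fold -0.59, adjusted p = 0.0379).

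None of the 3 calls held in either strain without the early low-share animals. Grin2a had 48.1 to 150.5 CPM in the 9 late animals, 45.5 and 69.0 CPM in the early high-share animals and 12.1 to 34.0 CPM in the 8 early low-share animals. Camk2a had 102 to 331 CPM late, 77.4 and 119.65 CPM early high-share and 43.5 to 93.9 CPM early low-share. Syn1 had 240.4 to 350.2 CPM late, 326 and 362 CPM early high-share and 422 to 691 CPM early low-share. The early high-share animals thus lay above all low-share ones for Grin2a, with 1 of them inside the late range, and at the edge of the late range for Syn1. With the library set as a term, 0 of the 9 genes passed in either strain, and 0 of all IDs did. The stage term of that fit rests on the early high-share animals, 1 per strain. The lost calls therefore do not show that the stage differences were absent. The SHRSP log2 folds were then 1.09 for Grin2a (SE 0.43), 0.99 for Camk2a (SE 0.38) and -0.29 for Syn1 (SE 0.21), each with an edgeR adjusted p of 0.976. The Wistar folds were 0.71 for Grin2a (SE 0.43, edgeR adjusted p = 0.954), 0.996 for Camk2a (SE 0.37, edgeR adjusted p = 0.954) and -0.21 for Syn1 (SE 0.21, edgeR adjusted p = 0.959). In the 11 high-share animals alone 0 of the 9 genes passed too, with 1 early animal per strain whose spread is assumed to be that of the other groups. There the SHRSP folds were 1.16 for Grin2a, 1.40 for Camk2a and -0.18 for Syn1, and the Wistar folds 0.58, 0.62 and -0.36 in the same order of genes. Relative to their SE in the fit with that term, the folds of Camk2a in both strains and of Grin2a in SHRSP were the largest. Those of Syn1 in both strains and of Grin2a in Wistar were smaller. The part of the library set in these differences was not tested beyond those values.

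**Figure D2:**
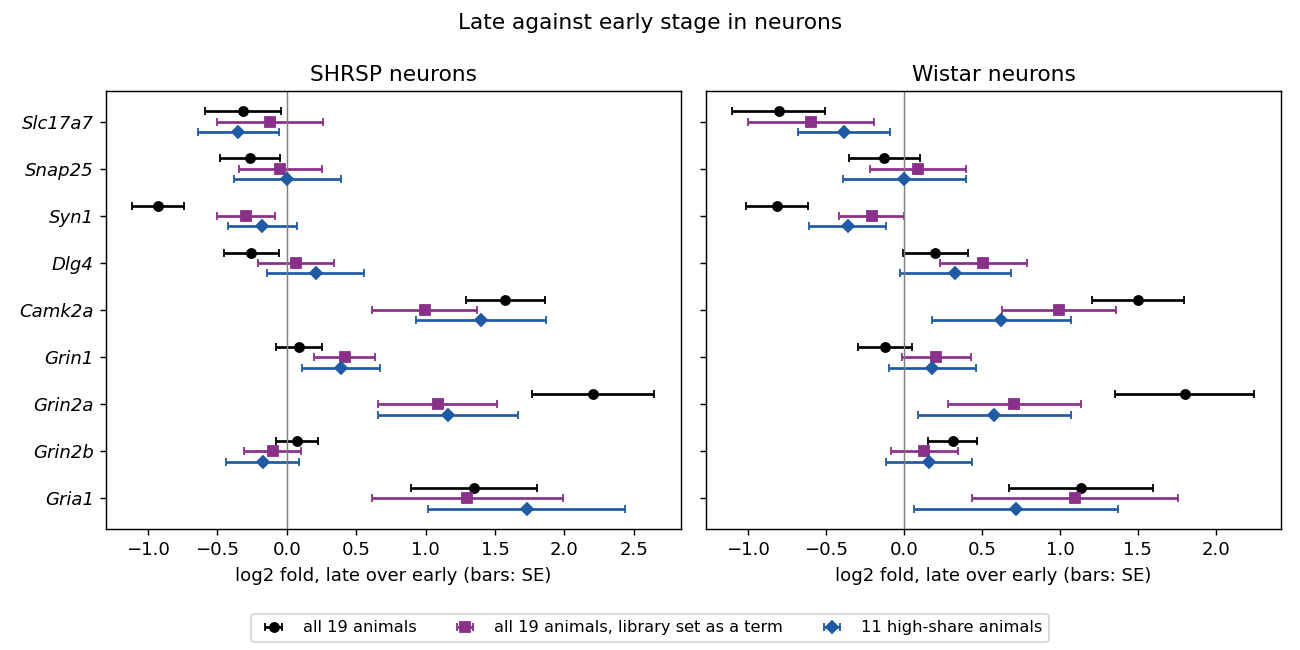
Log2 folds of late over early neurons for the 9 genes, in SHRSP (left) and Wistar (right), from all 19 animals (circles), from all 19 animals with the library set as a term (squares) and from the 11 high-share animals (diamonds). Bars are 1 SE. With the library set as a term the SHRSP fold of Grin2a is 1.09 (2.21 without it), that of Syn1 -0.29 (-0.92 without it) and that of Gria1 1.302 (1.35 without it).

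Ratios of 2 genes within a library do not depend on how the libraries are scaled. Grin2a had 24.0 to 74.3 counts per 100 counts of Grin2b in late SHRSP neurons (mean 53.8 ± 20.4, SD, n = 5) and 6.85 to 20.9 in early SHRSP neurons (11.4 ± 5.69, n = 5). Late Wistar neurons had 26.3 to 82.6 (54.0 ± 25.3, n = 4) and early Wistar neurons 7.36 to 38.2 (18.6 ± 13.3, n = 5). The balance of the GluN2A and GluN2B subunit transcripts thus stood higher in every late SHRSP animal than in any early one, and overlapped in Wistar. The early high-share animals had 20.9 (SHRSP) and 38.2 (Wistar), the highest values of their groups. Camk2a per 100 counts of Syn1 was 35.7 to 117 in the 9 late animals, 23.8 and 33.0 in the early high-share animals and 6.94 to 14.2 in the early low-share animals. These 3 ranges did not overlap. These ratios use the same counts as the folds above and are given as a description.

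**Figure D3:**
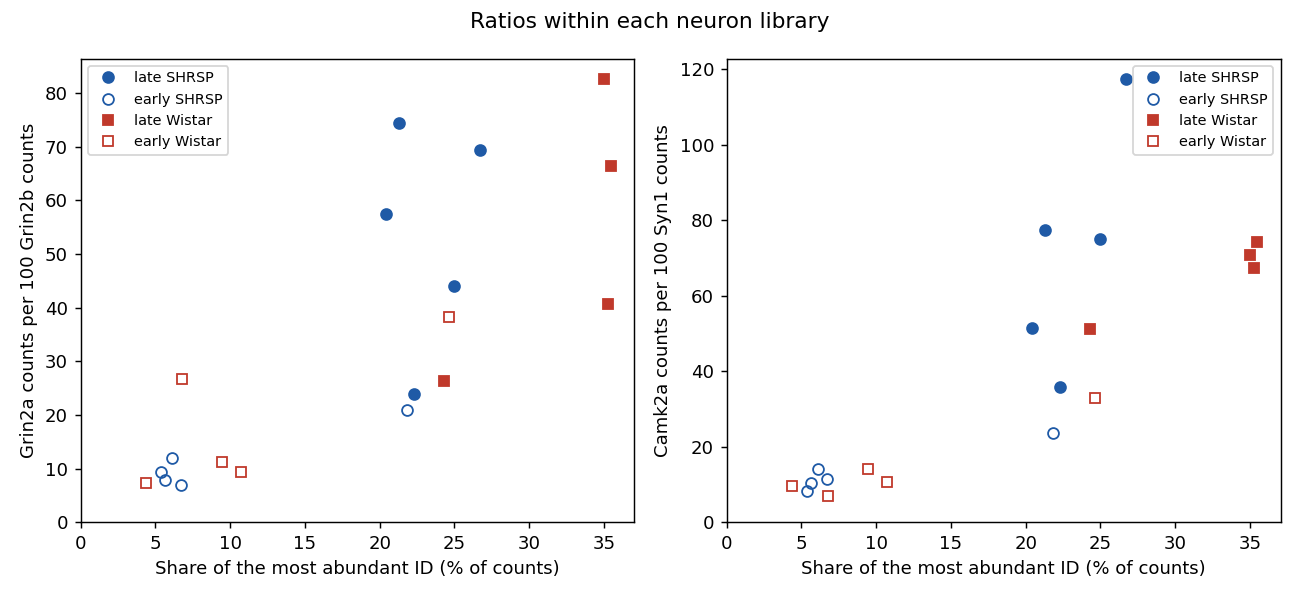
Counts of Grin2a per 100 of Grin2b (left) and of Camk2a per 100 of Syn1 (right) in each neuron library, against the share of counts taken by the most abundant ID (%). Filled symbols are late and open symbols early animals, circles SHRSP and squares Wistar. Late animals reach 82.6 and 117, and the early animals at a share above 20% stand above the other early animals in the right panel, at 23.8 and 33.0.

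None of the 9 genes passed the test between the strains in neurons. Over the mean of both stages 0 of 9 passed in edgeR, against 0.674% of all IDs. At an unadjusted p under 0.05 there were 0 of the 9, against 7.75% of all IDs. In early neurons 0 of 9 passed (0.222% of all IDs), with 1 at an unadjusted p under 0.05 (8.79% of all IDs). In late neurons 0 of 9 passed (0.0369% of all IDs), with 0 unadjusted (3.15% of all IDs). DESeq2 and limma voom passed 0 of 9 in each of these comparisons. Dlg4 had the largest early difference relative to its error, with 1063.5, 1369, 977, 733 and 942 CPM in early SHRSP neurons and 678, 649.5, 928, 642 and 712 CPM in early Wistar neurons. Most SHRSP values were above most Wistar ones, but animal 383 lay inside the Wistar range and Wistar animal 346 inside the SHRSP range. Its log2 fold was 0.49 (SE 0.20, edgeR adjusted p = 0.447), and the late fold was 0.04 (SE 0.21, edgeR adjusted p = 0.9999).

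How far the strains could differ varies with the gene. For the mean of both stages, 2 SE on each side of the log2 fold of SHRSP over Wistar reach -0.20 to 0.24 for Grin2b, -0.44 to 0.04 for Grin1 and -0.21 to 0.33 for Syn1. They reach -0.87 to 0.36 for Grin2a and -1.11 to 0.17 for Gria1, so the data bound these 2 receptor genes less tightly. The change of the strain difference from early to late passed for 0 of 9 genes and for 0% of all IDs in edgeR. It had 0 of the 9 at an unadjusted p under 0.05 (2.34% of all IDs) and 0 in DESeq2 and limma voom. Its log2 values ran from -0.46 for Dlg4 to 0.49 for Slc17a7.

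**Figure D4:**
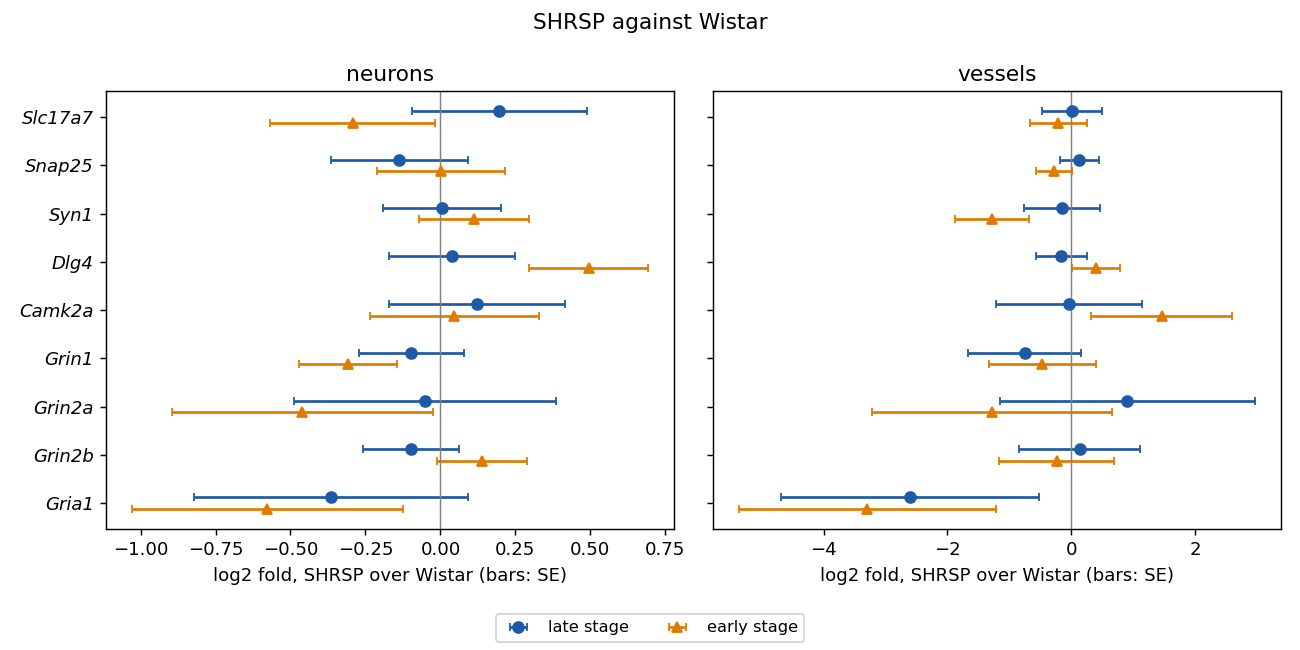
Log2 folds of SHRSP over Wistar for the 9 genes in neurons (left) and vessels (right), late stage (circles) and early stage (triangles), with bars of 1 SE. The horizontal scales differ between the panels. In neurons the folds lie between -0.58 and 0.49, and in vessels Gria1 reaches -3.29 with an SE of 2.08.

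Vessel libraries held counts of these neuronal transcripts too. Slc17a7 had 339 to 604 CPM in the 9 late and 288 to 1237 CPM in the 10 early vessel libraries, and Snap25 had 527.5 to 1955 CPM late and 1018 to 3275 CPM early. The cells these counts come from were not tested. Syn1, Dlg4, Slc17a7 and Snap25 had at least 207 counts in every vessel library. Grin1, Grin2b and Camk2a each had single early libraries near 0, with 2 counts of Grin1 in SHRSP animal 377, 1 of Grin2b in SHRSP animal 380 and at most 5 of Camk2a in 4 early animals.

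Grin2a and Gria1 were the patchiest in vessels. Grin2a had 43.8, 25.8, 28.4, 12.1 and 38.6 CPM in late SHRSP vessels and 0, 0, 0, 15.1 and 0.662 CPM in early SHRSP vessels. Late Wistar vessels had 0, 16.8, 28.4 and 18.3 CPM, and early Wistar vessels had 0 CPM but for 39.1 CPM in animal 349. The 2 early animals with more than 2 counts were 383 and 349, both high-share, and all 8 low-share vessel libraries had 0 to 2 counts. A count of 0 allows up to 0.678 to 1.86 CPM in these libraries (3 counts each, counting error only). Gria1 had 0 counts in 7 of 19 vessel libraries and 117 CPM in early Wistar animal 343, which had the lowest Gria1 value in neurons.

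In vessels 0 of the 9 genes passed between the stages, in SHRSP or in Wistar (0.00908% of all 11011 IDs in each, edgeR). That share is 1 ID in each strain, and without SHRSP animal 383 the SHRSP count was 1310 IDs with 0 of the 9 genes. At an unadjusted p under 0.05 there was 1 gene in SHRSP (13.9% of all IDs) and 1 in Wistar (3.64% of all IDs), Snap25 in both. Snap25 had a log2 fold of -0.64 (SE 0.30, edgeR adjusted p = 0.275) late over early in SHRSP and -1.04 (SE 0.32, edgeR adjusted p = 0.718) in Wistar. Late Wistar vessels had 877, 1019, 527.5 and 1955 CPM of Snap25 and early Wistar vessels 3275, 2239, 2660.4, 1874 and 1236 CPM, and the ranges overlapped. DESeq2 passed 0 of the 9 genes in both strains, and limma voom passed Grin2a in SHRSP alone, at a log2 fold of 5.39 (SE 1.55, adjusted p = 0.0148). The median log2 fold of all IDs late over early was 0.45 in SHRSP and 0.21 in Wistar vessels, so Snap25 lay 1.09 and 1.26 below that median.

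Between the strains 0 of the 9 genes passed in vessels, over both stages (0.0817% of all IDs), early (0.254%) or late (0%). The 28 IDs behind the early share were 7 to 1137 with 1 animal left out, the highest without SHRSP animal 383. Unadjusted p-values under 0.05 numbered 1 over both stages (8.68% of all IDs), 1 early (15.3%) and 0 late (0.926%). DESeq2 and limma voom passed 0 in each. Over both stages Gria1 had a log2 fold of -2.95 (SE 1.47, edgeR adjusted p = 0.556). Late SHRSP vessels had 0, 1.07, 7.25, 0 and 11.1 CPM of Gria1 and late Wistar vessels 25.3, 18.98, 45.0 and 5.91 CPM, overlapping through Wistar animal 354. Early, it passed only without SHRSP animal 383 (log2 fold -7.72, adjusted p = 0.0497). Syn1 had 95.6, 259, 128, 205 and 194 CPM in early SHRSP vessels and 362, 453, 728, 343 and 255 CPM in early Wistar vessels, with a log2 fold of -1.28 (SE 0.59, edgeR adjusted p = 0.268). The stage change of the strain difference passed for 0 of the 9 genes (0.00908% of all IDs). It had 0 unadjusted (7.16% of all IDs) and 0 in DESeq2 and limma voom.

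With both materials in 1 fit and the animal as a block, 6 of the 9 genes were higher in neurons than in vessels, against 50.6% of all 12117 IDs called in either direction and 47.5% called higher in neurons. These 6 are 66.7% of the 9 genes. Over all groups the 9 log2 folds were above 0, with a median of 0.78, against 1.63 over all IDs, and Grin2a and Gria1 were the 2 genes above that median of all IDs. This order differed by stage. The median of the 9 genes was 0.79 in late SHRSP (0.46 over all IDs) and 0.94 in late Wistar (0.36 over all IDs), with 7 and 6 of the 9 genes above the median of all IDs. It was 1.37 in early SHRSP (3.71 over all IDs) and 0.70 in early Wistar (1.65 over all IDs), with 2 and 3 of the 9 above. All but 2 of the early animals are low-share. Under the scaling that DESeq2 uses, the fold of Dlg4 turned to -0.08.

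Among the receptor genes, Grin2a and Gria1 had the largest folds of the 9. Grin2a had 12.2 to 142 CPM in neurons and 0 to 43.4 CPM in vessels (medians 49.3 and 11.9 CPM on the scale of the joint fit) and was higher in the neurons of 19 of 19 animals. Its fitted log2 fold was 4.25 (SE 0.77, edgeR adjusted p = 3.26e-06), a value that rests in part on the 8 vessel libraries at 0. Gria1 had 3.98 to 80.9 CPM in neurons and 0 to 115 CPM in vessels (medians 31.6 and 1.06 CPM) and was higher in the neurons of 18 of 19 animals, with animal 343 as the exception (log2 fold 4.27, SE 0.92, edgeR adjusted p = 9.79e-05). In the 11 high-share animals alone, where Grin2a had a median of 94.0 CPM in neurons and 25.5 CPM in vessels, its log2 fold was 1.81 (SE 0.76, adjusted p = 0.170). Gria1 there had 1.77 (SE 0.85, adjusted p = 0.205), and the median over all IDs was 0.49. In the low-share animals both genes had a vessel median of 0 CPM. By animal, neurons stood higher in all 11 high-share animals for Grin2a, Gria1, Grin2b and Slc17a7. They did so in 10 of the 11 for Snap25 and Camk2a, 9 for Dlg4, 8 for Grin1 and 4 for Syn1. Grin2b had a log2 fold of 0.88 (SE 0.39, edgeR adjusted p = 0.0477), and without any 1 of 17 of the 19 animals it no longer passed. Grin1 had 0.78 (SE 0.37, edgeR adjusted p = 0.0633).

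Among the presynaptic genes, Slc17a7 was higher in the neurons of 17 of 19 animals (log2 fold 0.73, SE 0.19, edgeR adjusted p = 0.00134) and passed in all 27 other settings tried. Snap25 was higher in 15 of 19 (log2 fold 0.57, SE 0.13, edgeR adjusted p = 0.000249), a call lost with DESeq2 (log2 fold 0.37, adjusted p = 0.151). Syn1 was higher in 11 of 19, in 7 of the 8 low-share and 4 of the 11 high-share animals, with a log2 fold of 0.49 (SE 0.25, edgeR adjusted p = 0.0890). On the postsynaptic side, Camk2a was higher in the neurons of 15 of 19 animals (log2 fold 1.43, SE 0.52, edgeR adjusted p = 0.0168). That call was lost without early Wistar animal 368 (adjusted p = 0.0514) or early SHRSP animal 386 (adjusted p = 0.0510), which had 0 and 5 counts of Camk2a in vessels. Without the animal as a block it was lost as well, at a log2 fold of 0.59 (SE 0.42, adjusted p = 0.329). Dlg4 had a log2 fold of 0.12 (SE 0.18, edgeR adjusted p = 0.571), with 2 SE reaching -0.24 to 0.48, and was higher in the neurons of 14 of 19 animals.

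**Figure D5:**
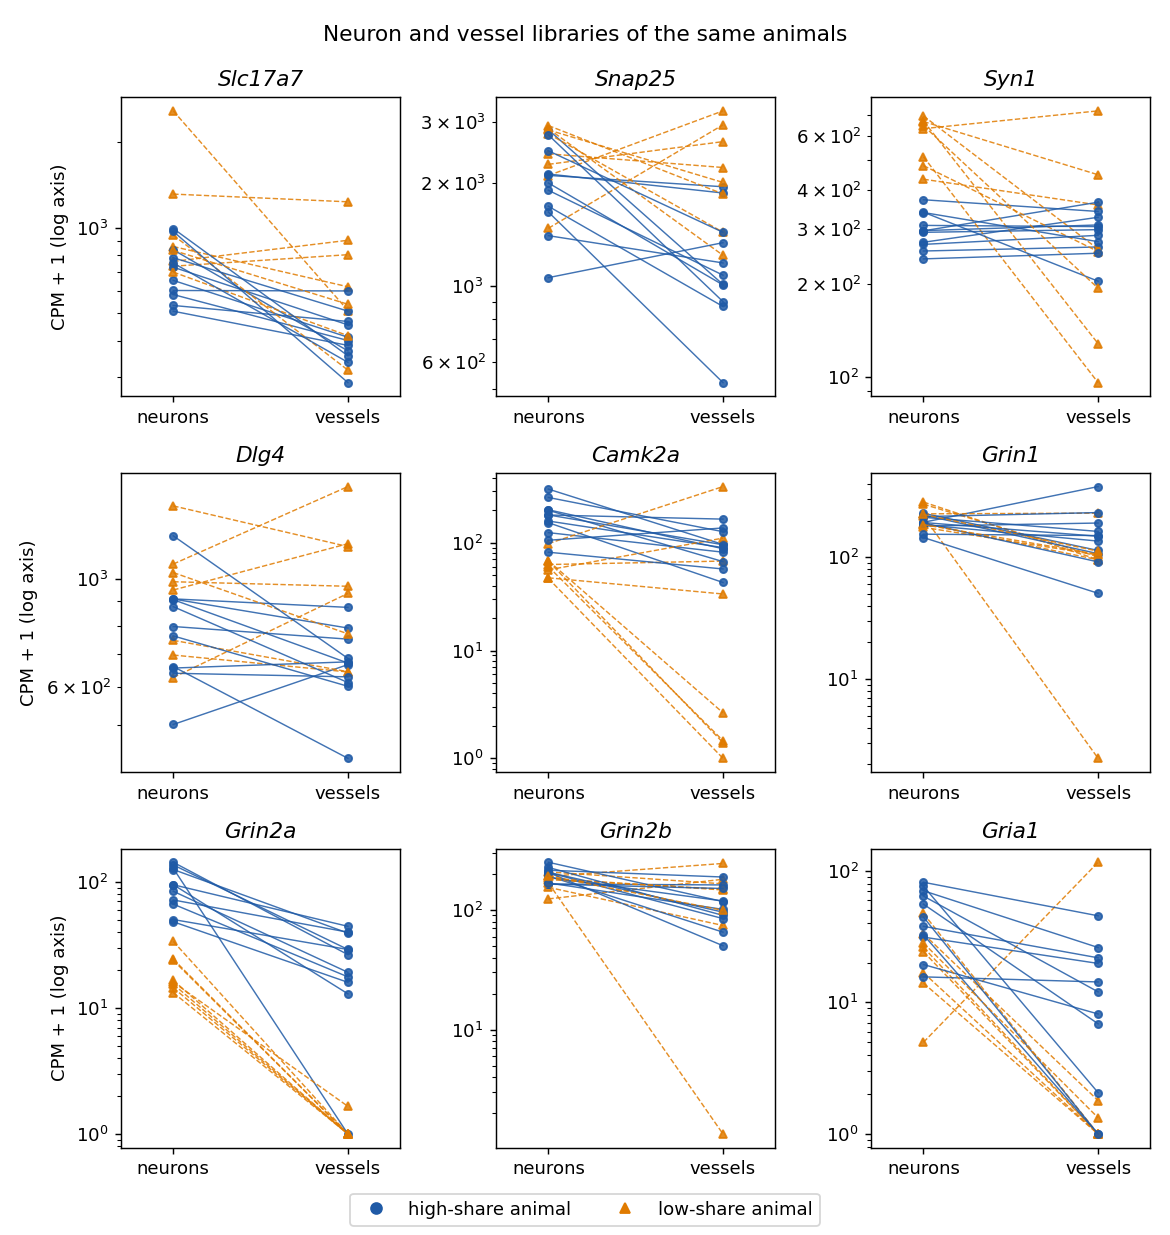
CPM plus 1 (log axis) of the 9 genes in the neuron and vessel library of each animal, joined by a line. Circles and solid lines are the 11 high-share animals, triangles and dashed lines the 8 low-share animals. All 19 lines fall towards vessels for Grin2a, where the low-share vessel libraries lie at or near 0 counts, and the vertical scales differ between panels.

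Group by group, 4 of the 9 genes were higher in early SHRSP neurons than in the vessels of the same animals (39.1% of all IDs called in either direction, 38% higher), namely Slc17a7, Syn1, Grin2a and Gria1. In late SHRSP 0 of 9 passed in edgeR (0.883% of all IDs), with 2 at an unadjusted p under 0.05 (10.6% of all IDs). DESeq2 passed 1 there and limma voom 2. The spread in this fit is shared by all 4 groups. With the low-share animals left out of the fit, the same 5 late SHRSP and 4 late Wistar animals gave more calls, counted in the last section. The early and late counts are therefore not a measure of a stage difference. In early Wistar Grin2a alone passed, 1 of 9 higher in neurons (0.677% of all IDs, 0.371% higher), and in late Wistar Snap25 alone, 1 of 9 higher in neurons (0.371% of all IDs, 0.0413% higher), at a log2 fold of 1.06 (SE 0.28, edgeR adjusted p = 0.0499). The 82 IDs behind the early Wistar share were 908 without animal 349 and 24 without animal 368. The early Wistar call of Grin2a was lost without any 1 of 10 animals and the late Wistar call of Snap25 without any 1 of 13. In early SHRSP, Slc17a7 was lost without any 1 of 7 animals, and its log2 fold of 0.96 was 0.57 without animal 383. A change of the difference between materials with strain passed for 0 of the 9 genes (0.00825% of all IDs). It had 0 unadjusted (5.67% of all IDs) and 0 in DESeq2 and limma voom. A change with stage passed for 0 of the 9 too (0.0413% of all IDs in edgeR). It had 3 genes at an unadjusted p under 0.05 (24.3% of all IDs), 1 in DESeq2 and 0 in limma voom. The 5 IDs behind that share were 1360 without SHRSP animal 383, 901 without Wistar animal 349 and 0 without Wistar animal 350. Grin2a had the largest value relative to its error, -3.58 on the log2 scale, late minus early (SE 1.5, edgeR adjusted p = 0.137). The median of this change was -1.98 over all IDs and -0.69 over the 9 genes.

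The 9 genes did not move as one. Over the 19 neuron libraries, with group means removed, the 36 pairs of genes had Pearson correlations of log2 CPM from -0.78 (Snap25 with Camk2a) to 0.74 (Camk2a with Grin2a), with a median of -0.08, and 15 pairs were above 0. In the 11 high-share libraries, without removing group means, Grin2a and Gria1 correlated at 0.95, and Camk2a correlated at 0.90 with each of them. Over the 19 libraries with group means removed, Grin2a and Gria1 correlated at only 0.24, and Camk2a and Gria1 at 0.66. All pairs share library, depth and scaling, so these values only describe the libraries. By the fixed rule for likeness, the IDs nearest to the mean standardised level of the 9 genes in the 19 neuron libraries were ENSRNOG00000046497 (r = 0.83) and ENSRNOG00000058202 (r = 0.78). The most opposed were ENSRNOG00000026874 (r = -0.84) and ENSRNOG00000015983 (r = -0.82). By that rule these IDs are the extremes of all other IDs tested in neurons. Each of the 9 genes correlated with the mean of the others at -0.78 (Snap25) to 0.32 (Gria1). The mean level is therefore not a profile that the 9 genes share.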

How the data were processed

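RNA from laser-cut neuron clusters and vessels was isolated with a PicoPure kit and sequenced from the 3' end with QuantSeq FWD, per the labels' protocols. Tools named, per the submitters' processing notes, are STAR 2.5.3a with HTSeq 0.6.1, DESeq2 1.18.1 and FastQC 0.11.5. Build, annotation and strand setting: not given in the sources used here. As deposited by the authors, the values are raw counts per Ensembl ID, which were used unchanged. The 9 genes, the lists and the tests were chosen with earlier results of these data known. No table at hand pairs Ensembl IDs with symbols, so the planned lists of other pathway genes and cell type markers were not used.

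Counts were filtered (filterByExpr), scaled with TMM and fitted with edgeR 4.0.16 (R 4.3.3, limma 3.58.1) by robust quasi-likelihood, 19 libraries per material in 4 groups. Neurons and vessels were compared over 38 libraries with the animal, given by the number in the sample titles, as a block, because both libraries come from that animal. Their deviations from group means correlated at -0.23 to 0.41 over 19 pairs, median 0.05. Adjusted p-values (Benjamini-Hochberg) cover all IDs tested, at a threshold of 0.05, and SEs are the absolute log2 fold divided by the square root of F. The steps were run on simulated counts with known changes. Those counts held no effect of animal or library set, so they do not test how the steps handle these. Animals are separate, and no within-group pair of libraries (72 pairs) agreed within sampling noise. The 9 genes are all named, with the 2 other IDs most like and the 2 most unlike their mean level in neurons. Alternatives included DESeq2 1.42.0, limma voom, other scalings, no filter, single animals left out, the library set and no block.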

Additional observations from a re-analysis of the deposited data

Results flagged for a closer look

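In 9 of the 72 groups of libraries looked at (9 genes, 4 groups, both materials), 1 animal stood apart from the others of its group by Dixon's criterion at 95%, and chance flags about 1 in 20 groups. In neurons, Camk2a had 119.65 CPM in early Wistar animal 349, against 43.5 to 65.1 CPM in the rest of that group. Dlg4 had 928 CPM in early Wistar animal 346, against 642 to 712 CPM in the rest. Slc17a7 had 2452 CPM in early Wistar animal 368, against 740.3 to 839 CPM in the rest. Dlg4 had its lowest late Wistar level in animal 354, at 513 CPM, against 887 to 962 CPM in the rest.

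In vessels, the high-share animal 383 had 13.5 CPM of Gria1 and 15.1 CPM of Grin2a, against 0 to 0.331 CPM and 0 to 0.662 CPM in the other early SHRSP animals. The high-share animal 349 had 39.1 CPM of Grin2a, and the other early Wistar vessel libraries had 0 counts. Gria1 had 117 CPM in early Wistar animal 343, against 0 to 20.9 CPM in the rest of its group. Slc17a7 had 1237 CPM in early SHRSP animal 377, against 288 to 540.8 CPM in the rest of its group.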

How the results depend on the processing

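No value of the 9 genes that passed a test changed sign under any alternative. Between the stages in neurons, where 3 genes passed in each strain, 0 passed in either strain with the library set as a term or in high-share animals only. In Wistar, 5 passed with library totals as the only scaling and 1 with the 2 groups fitted alone. That scaling, chosen after seeing the data, gave a median over all IDs of -0.35 in SHRSP and -0.48 in Wistar, against -0.08 and -0.03 with TMM. Leaving out 1 animal at a time gave 3 to 4 genes in SHRSP and 1 to 4 in Wistar. In SHRSP vessels limma voom passed 1. Leaving out 1 animal gave 0 to 1 between the strains in early vessels.

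Without the replicate block, 4 genes passed between neurons and vessels over all groups (6 with it), 1 in early SHRSP, 0 in late SHRSP, 0 in early Wistar and 0 in late Wistar. With the block and 1 term for the material, added after seeing the data, 5 passed, with 4157 IDs in all. In late Wistar 0 passed with DESeq2's scaling, no filter, DESeq2, limma voom or library totals, and 2 passed in high-share animals only. In early Wistar 0 passed with no filter, in high-share or in low-share animals only, and 2 with DESeq2 and with limma voom. In late SHRSP 1 passed with DESeq2, 2 with limma voom and 4 in high-share animals only, and in early SHRSP 1 in high-share and 2 in low-share animals only. For the stage change of the material difference 1 passed with DESeq2. Leaving out 1 animal gave 4 to 7 over all groups, 3 to 4 in early SHRSP, 0 to 1 in each Wistar group and 0 to 1 for the stage change. Where no value is given here, the cause of a change was not tested.

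Counts over all IDs moved by more than 1.5 times too. Between the stages in SHRSP neurons (959 IDs) they were 1480 with DESeq2, 627 with limma voom, 1709 with library totals, 2033 with the 2 groups alone and 180 to 1951 with 1 animal left out. In Wistar neurons (1009 IDs) they were 1556 with DESeq2, 3005 with library totals, 83 with the 2 groups alone and 197 to 1847 with 1 animal left out. In SHRSP vessels (1 ID) DESeq2 called 358, limma voom 1459 and leaving out 1 animal up to 1310, without SHRSP animal 383. Between the strains in early vessels (28 IDs) leaving out 1 animal gave 7 to 1137, for the stage change of the material difference (5 IDs) 0 to 1360, and for the material difference in early Wistar (82 IDs) 24 to 908. Between materials (6126 IDs) there were 1886 in high-share animals only and 3075 without the block. Between the strains in neurons (73 IDs) DESeq2 called 159, and 6 were called in high-share animals only. Alternatives with low-share animals only could not be fitted where late animals were needed, since none is low-share. Genes with few vessel counts limit the vessel comparisons.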
